A study of Rattus norvegicus with 6 samples.

Results

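Nucleoporins are the proteins of the nuclear pore complex, the channel through which proteins and RNA cross the nuclear envelope, and karyopherins are the soluble receptors that carry cargo through it. Importins bind cargo in the cytosol and release it in the nucleus when they meet Ran in its GTP-bound form, whereas exportins bind cargo together with Ran-GTP in the nucleus and release it outside. The pore itself is built from outer and inner scaffold rings, a central channel of proteins rich in phenylalanine-glycine repeats, filaments on its cytoplasmic side and a basket on its nuclear side.

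The genes described here are those whose symbol names a numbered nucleoporin (Nup), an importin alpha (Kpna), importin beta (Kpnb1), another importin (Ipo), an exportin (Xpo, with the tRNA exportin Xpot and Cse1l) or a transportin (Tnpo). Of 30560 gene rows, 45 matched, each under its own symbol: 22 nucleoporin genes and 23 receptor genes. The rule itself reads only the gene names. Poly(A) RNA was measured in mesenchymal stem cells of the rat, stromal progenitors of several connective tissues, labelled WT. All 6 libraries came from cells that had 24 hours of doxorubicin at 200 nM, a drug that breaks DNA and can drive cells into senescence, and were then kept in fresh medium for 6 days. During those days the Dox cells (3 libraries) received vehicle and the SMNV cells (3 libraries) received 100 µg/ml of a preparation that the labels call SMNV and do not expand. No library of cells without doxorubicin was analysed here. The labels do not say whether the libraries of a group came from separate cultures, so p-values measure the spread between these libraries, which may be technical.

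The libraries held 18640909 to 20051586 counts in Dox and 20404898 to 21506967 in SMNV, so the groups did not overlap in depth. A 28S ribosomal RNA row stood at 1.25 to 5.93 unscaled CPM in Dox and at 31.3 to 124 in SMNV, and its part in the results was not tested. The proliferation markers Mki67, Top2a, Cdk1, Ccnb1, Pcna and Mcm2 were all called higher in SMNV, as were 30.5% of all tested genes. Their summed level was 778 to 830.4 CPM in Dox and 1420 to 1519 in SMNV. CPM here are counts relative to the TMM-scaled total of a library. The rise of Pcna, 0.22 ± 0.07 on the log2 scale, was lost on the authors' TPM values (0.10). Of 8 stromal markers Col1a1 (2.12-fold), Pdgfrb and Eng rose in SMNV (37.5%, against 30.5% of all tested genes). Cd44 (2.12-fold), Itgb1 (1.56-fold) and Pdgfra (1.32-fold) fell (37.5%, against 29.9%), and Thy1 and Nt5e did not pass. The rise of Eng was lost on TPM. Their mean levels were 54.0 CPM or more in both groups, except for Nt5e, at 1.94 CPM in Dox and 1.78 in SMNV. The 6 haematopoietic markers summed to 7.04 to 8.48 CPM in Dox and 6.31 to 7.40 in SMNV, with Ptprc, Itgam and Adgre1 at 0. The 5 endothelial markers summed to 1.42 to 2.97 and 1.31 to 2.40 CPM, with Cdh5 and Kdr at 0.

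In cells given SMNV the transport receptors were mostly lower, with Kpna2 as the largest exception, while nucleoporins split between higher and lower. Of the 45 genes, 41 passed the filter on low counts, 10 rose, 19 fell and 12 did not pass edgeR's quasi-likelihood test at an adjusted p of 0.05. This is 24.4% higher and 46.3% lower, where 30.5% and 29.9% of all 12614 tested genes were called higher and lower (60.4% in either direction). Among the 22 tested receptors 4 rose and 13 fell (59.1%), with a median log2 fold change of -0.27. Among the 19 tested nucleoporins 6 rose and 6 fell (31.6% each), which is near the shares of all genes. On TPM, the authors' values scaled by gene length, 2 nucleoporins rose and 8 fell. Their median was 0.09 on counts and -0.13 on TPM, and that of all tested genes was -0.01 and -0.10. The difference between nucleoporins and receptors was not tested. In bulk RNA, fewer cells of a type and less RNA per cell cannot be told apart.

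The changes were small. No member changed by 2-fold, where 10.2% of all tested genes were called with at least that change, and 4 members (9.76%) were called with at least 1.5-fold, against 24.7% of all genes. These were Kpna2 and Nup133, which were higher in SMNV, and Ipo5 and Kpna1, which were lower. Every tested member had a mean of at least 14.4 CPM over both groups. The tested genes as a whole included scarcer ones, such as Nt5e (1.94 CPM in Dox and 1.78 in SMNV). The part of expression level in these differences from all genes was not tested. Dox and SMNV values in CPM were fully separate for 30 members (73.2%), where 66.9% of all tested genes did not overlap. SMNV lay above Dox for 10 of the 41 (24.4%) and below for 20 (48.8%), against 33.4% of all genes in each direction. On the TPM scale the split was 4 higher and 22 lower, with 3078 higher and 4652 lower over all genes in place of 3841 and 3773.

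**Figure D1:**
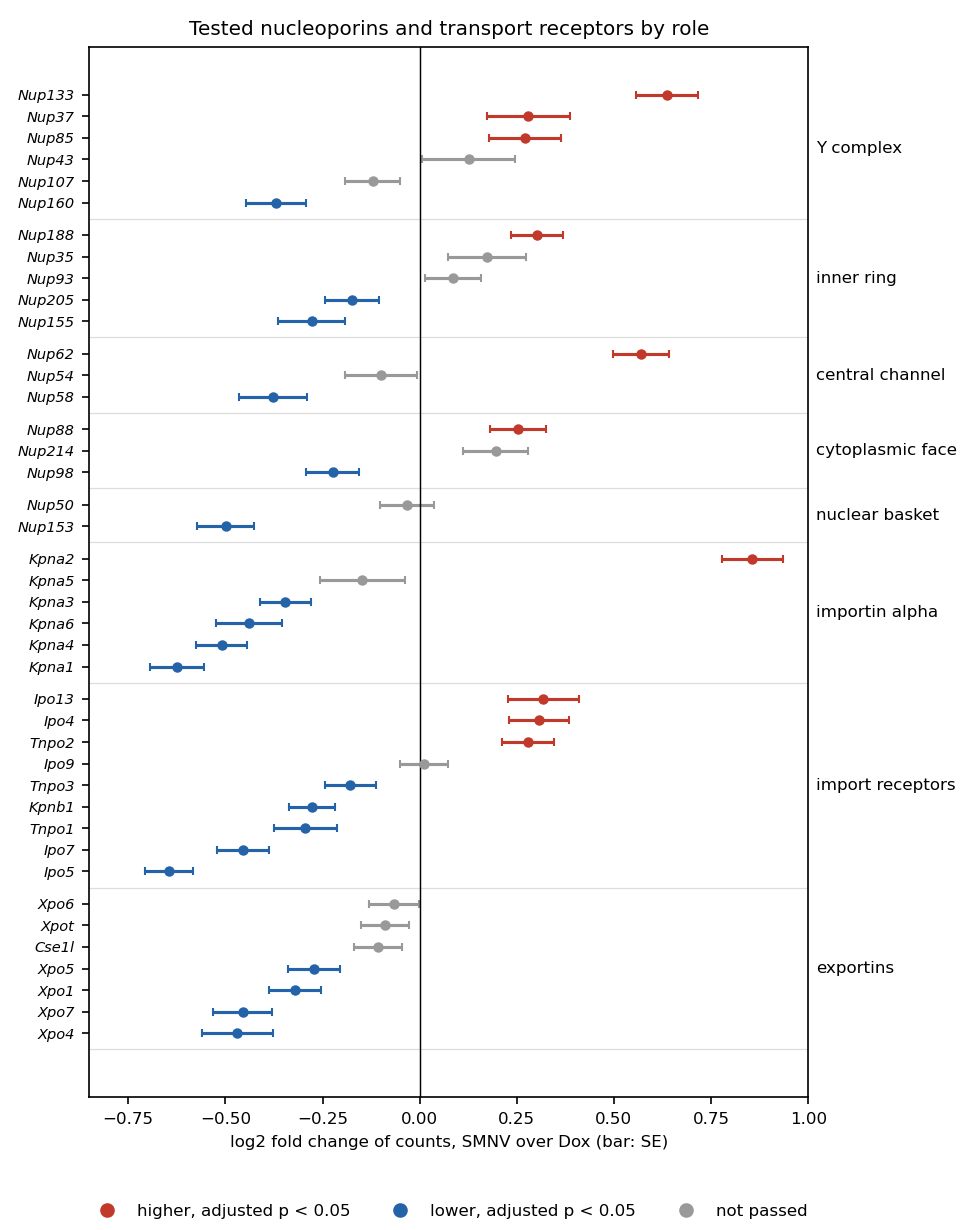
Log2 fold change of counts, SMNV over Dox, for the 41 tested members grouped by role, with the standard error as bars. Red points rose and blue points fell at an adjusted p under 0.05, and grey points did not pass. Kpna2 lies alone on the right among the importin alpha genes, and no exportin lies to the right of 0.

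The 4 members below the filter were scarce in every library. Nup210, a transmembrane nucleoporin, had 0.341, 0.263 and 0.542 CPM in Dox and 0.294, 0.0937 and 0.453 in SMNV. Its paralog Nup210l had at most 0.316 CPM in any library. Kpna7 and Nup62cl had no counts.

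Summed, the 45 members took 0.461% to 0.495% of the unscaled counts in the Dox libraries and 0.394% to 0.413% in the SMNV libraries. The 10 most abundant rows took 14.4% to 15.2% of those counts in Dox and 17.8% to 19.4% in SMNV. In CPM, on TMM-scaled totals, the members summed to 4662 ± 159 in Dox and 4149 ± 91.7 in SMNV. The receptors' summed level was 3517 ± 131 CPM in Dox and 3000 ± 73.8 in SMNV (SD, n = 3). The nucleoporins summed to 1145 ± 29.0 and 1149 ± 18.6 CPM, a difference smaller than the spread between libraries. On TPM, which is scaled by length, the nucleoporins summed to 599 ± 26.2 and 543 ± 23.8, of which Nup188 alone took 60.5 ± 8.27 and 32.8 ± 7.05.

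Promoters are shown for the members at the ends of the range: Kpna2 had the largest rise, Nup133 the largest rise of a nucleoporin and Ipo5 the largest fall. Each line gives the 250 bases before the gene's start on its own strand, 5′ to 3′, from RefSeq's GRCr8 table. The authors' build, mRatBN7.2, is another one, and no position was carried between the builds. Capitals mark CCAAT in Kpna2 and Ipo5, TTTGAA (read here on the other strand as TTCAAA) in Kpna2 and Nup133, and TGACGTCA in Nup133.
Kpna2, chr10:92445842-92446091, strand -: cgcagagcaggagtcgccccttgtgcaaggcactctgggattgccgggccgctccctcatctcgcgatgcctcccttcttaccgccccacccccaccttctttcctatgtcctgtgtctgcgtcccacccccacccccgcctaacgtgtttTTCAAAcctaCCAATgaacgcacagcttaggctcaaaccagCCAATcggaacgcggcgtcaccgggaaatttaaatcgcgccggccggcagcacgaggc
Nup133, chr19:68838693-68838942, strand -: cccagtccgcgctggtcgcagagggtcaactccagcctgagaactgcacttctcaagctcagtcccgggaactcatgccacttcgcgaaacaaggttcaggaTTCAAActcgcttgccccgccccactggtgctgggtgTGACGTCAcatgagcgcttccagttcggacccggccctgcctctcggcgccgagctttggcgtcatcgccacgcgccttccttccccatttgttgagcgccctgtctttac
Ipo5, chr15:104411998-104412247, strand +: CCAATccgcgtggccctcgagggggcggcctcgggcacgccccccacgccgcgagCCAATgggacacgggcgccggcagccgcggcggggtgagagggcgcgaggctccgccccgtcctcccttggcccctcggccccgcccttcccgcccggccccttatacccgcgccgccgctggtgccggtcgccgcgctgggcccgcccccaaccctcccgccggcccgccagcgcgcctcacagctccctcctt
CCAAT is the core of the box bound by the factor NF-Y, TTTGAA is the cell cycle homology region (CHR) found in promoters of many mitotic genes, and TGACGTCA is the cAMP response element. The Kpna2 sequence holds CCAAT 58 and 89 bases before the start, counted to the first letter, and TTCAAA 99 bases before it. Ipo5 holds CCAAT 195 and 250 bases before its start, and Nup133 holds TGACGTCA 111 and TTCAAA 148 bases before its start. The marked stretches do not overlap.

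The RefSeq table held a promoter for 39 of the 45 members, 35 of them tested. On either strand, CCAAT was found in 16 of these 35 (45.7%) and in 34.0% of all 33469 promoters of that length. TTTGAA was found in 8 (22.9%), against 16.2% of all, and TGACGTCA in 3 (8.57%), against 1.59%. The E box CACGTG was found in 4 (11.4%), against 5.59% of all, and the ETS core CCGGAAG in 5 (14.3%), against 7.27%. The E2F forms TTTGGCGC and TTTCCCGC and the NRF1 core were found in 1 member each (2.86%), against 0.412%, 0.813% and 0.762% of all. Kpna2, Cse1l, Nup37 and Nup98 held both CCAAT and TTTGAA, as did 5.87% of all promoters. By direction, CCAAT was present in 4 of 10 higher, 4 of 15 lower and 8 of 10 members that did not pass, and TTTGAA in 4, 2 and 2. The median GC content was 61.6% for higher, 62.0% for lower and 61.2% for members that did not pass, and 51.2% over all promoters. These are matches of letters and not binding sites. The set of all promoters includes those of genes not tested here, whereas the 35 members were all tested. Differences from that set can therefore not be called particular to the members.

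Importin alpha proteins are the adaptors that hold the classical nuclear localization signal of a cargo and link it to importin beta. Of 6 tested genes, Kpna2 rose (16.7%), Kpna1, Kpna3, Kpna4 and Kpna6 fell (66.7%) and Kpna5 did not pass. As given above, 30.5% of all tested genes rose and 29.9% fell. Kpna2 had 138, 113 and 115 CPM in the Dox libraries and 216, 233 and 212 in the SMNV libraries. Every SMNV library was thus above every Dox library, 1.81-fold on the fitted scale, a difference of 0.86 ± 0.08 on the log2 scale (± SE, adjusted p = 3.8e-07, edgeR). This rise stood beside that of all 6 proliferation markers, and the part of proliferation in it was not tested.

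Kpna1 went the other way, from 68.2, 63.7 and 70.0 CPM in Dox to 43.6, 43.9 and 43.5 in SMNV. Its SMNV libraries were close together, and it was 1.54-fold lower there (log2 fold change -0.62 ± 0.07, adjusted p = 2.8e-06, edgeR). Kpna4 had 185, 163 and 167 CPM in Dox and 123, 119.6 and 118 in SMNV, without overlap, a log2 fold change of -0.51 ± 0.07 (adjusted p = 9.8e-06, edgeR). Kpna6 and Kpna3 fell by 0.44 ± 0.09 and 0.35 ± 0.07 on the log2 scale. Kpna5, the scarcest tested importin alpha, had overlapping groups and a log2 fold change of -0.15 ± 0.11. The call for each of the 6 genes was the same in all 15 alternative fits, TPM scales included.

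These opposite changes altered the make-up of the family. Per length, Kpna2 gave 37.1%, 35.1% and 34.5% of the summed importin alpha TPM in the Dox libraries and 56.2%, 59.5% and 57.4% in the SMNV libraries, while the sum itself was 359.6 ± 27.7 and 370.0 ± 16.6 TPM (SD, n = 3). The difference in this sum of named genes was smaller than the spread between libraries. Both the sum and the shares leave out a Kpna2-like row, described below. That row had 28.4, 28.9 and 29.7 TPM in Dox and 76.9, 76.2 and 70.4 in SMNV. With it added, the summed TPM of every SMNV library lay above that of every Dox library, with a narrow gap. The small difference between groups therefore holds only for the sum without that row. The share of Kpna4 was 24.4 ± 0.199% in Dox and 15.4 ± 0.430% in SMNV, that of Kpna3 17.5 ± 0.447% and 12.3 ± 0.128%, and that of Kpna6 13.5 ± 0.286% and 8.72 ± 0.871%. Kpna1 took 7.06 ± 0.473% and 4.10 ± 0.0929%. Kpna5 stayed near 2.01 ± 0.218% and 1.83 ± 0.317%, which overlap.

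**Figure D2:**
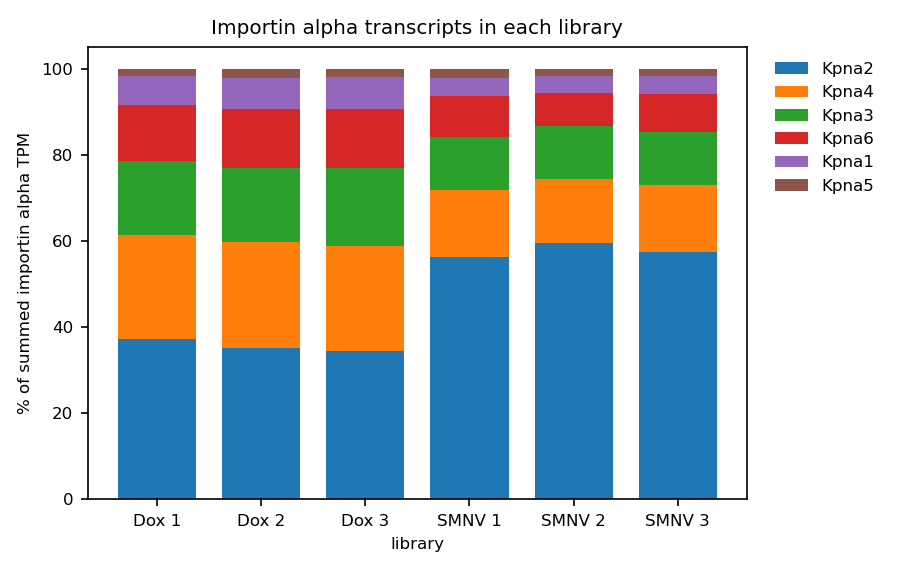
Share of the summed importin alpha TPM taken by each gene, in percent, in each of the 6 libraries. Kpna2 fills 34.5% to 37.1% of each Dox bar and 56.2% to 59.5% of each SMNV bar.

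A related gene makes the level of Kpna2 and the sum of the family less certain. A row without a symbol, described in the files as karyopherin alpha 2-like and named Kpna2l1 in RefSeq under its Entrez number, had 27.4, 27.8 and 28.6 CPM in Dox and 77.7, 81.4 and 74.9 in SMNV. It rose by 1.48 ± 0.07 on the log2 scale, and both rows carry decimal counts, so reads may have been divided between them. With both rows summed, a setting chosen after seeing the data, the CPM were 166, 141 and 143 in Dox and 294, 315 and 287 in SMNV. The log2 fold change of the sum was 0.995 ± 0.07.

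The receptors of the importin beta family bind cargo directly or through importin alpha. Of 9 tested genes, 5 fell (55.6%), 3 rose (33.3%) and Ipo9 did not pass, against 29.9% lower and 30.5% higher over all tested genes. Ipo5, an importin of ribosomal proteins and histones, had 645, 596 and 608 CPM in Dox and 399.8, 400.0 and 383 in SMNV. It was 1.56-fold lower in SMNV, well clear of the spread in either group (log2 fold change -0.64 ± 0.06, adjusted p = 5.3e-07, edgeR). Kpnb1, importin beta itself, went from 555, 518 and 533 to 448, 443 and 435 CPM, 1.21-fold lower (log2 fold change -0.28 ± 0.06, adjusted p = 0.00096). Ipo7, another carrier of ribosomal proteins and a partner of Kpnb1 in the import of linker histones, had 196, 173 and 184 CPM in Dox and 141, 128 and 134 in SMNV, a log2 fold change of -0.46 ± 0.07 (adjusted p = 3.5e-05). The groups did not overlap for any of these 3 genes, and each call was kept in every alternative fit.

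Tnpo1, the transportin of RNA-binding proteins with a proline-tyrosine signal, fell by 0.29 ± 0.08 on the log2 scale, a call lost without SMNV 3 (-0.22, adjusted p = 0.0544). Tnpo2, its close paralog, rose by 0.28 ± 0.07. Tnpo3, which imports serine-arginine splicing factors, fell by 0.18 ± 0.07 on counts but had 0.12 on TPM (adjusted p = 0.605, limma), and its call was also lost without a filter and without Dox 1 (-0.14), SMNV 2 (-0.18) or SMNV 3 (-0.13). Its TPM was 84.4, 42.7 and 55.5 in the SMNV libraries, a wide spread, while its CPM there was 105, 106 and 98.0.

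Ipo4, an importin of histones H3 and H4 known from human cells, had 60.1, 74.7 and 71.1 CPM in Dox and 83.4, 85.9 and 85.5 in SMNV. It rose by 0.31 ± 0.08 (adjusted p = 0.00322, edgeR), with Dox 1 the lowest library. Ipo13, a receptor known to carry cargo in both directions, had 27.4, 34.3 and 30.2 CPM in Dox and 37.7, 38.8 and 38.1 in SMNV and rose by 0.32 ± 0.09. Both calls were lost on TPM, where the values were 0.19 and 0.19. Ipo9, a carrier of histones H2A and H2B, had overlapping groups and a log2 fold change of 0.01 ± 0.06.

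**Figure D3:**
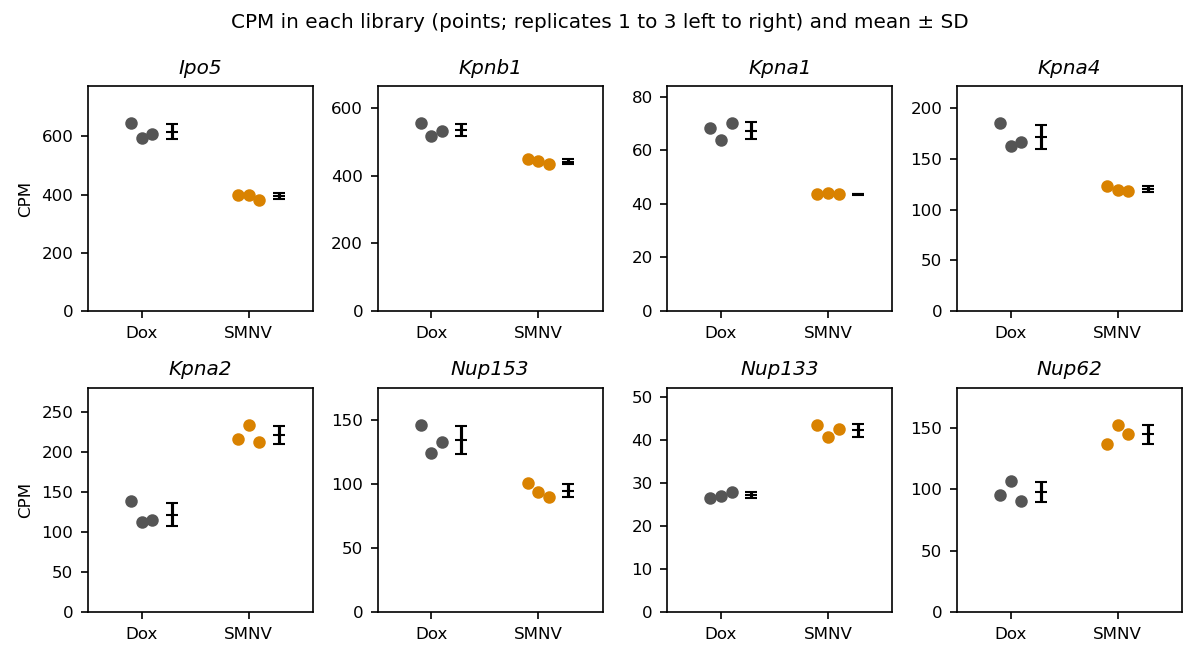
CPM of 8 members in each library, as points, with the group mean and SD (n = 3) beside them and each axis starting at 0. The Dox and SMNV points do not overlap in any of the 8 panels, and Kpna2, Nup133 and Nup62 are the panels in which SMNV is higher.

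The order of levels changed at the top of the list. Among tested members in Dox, per length, Kpnb1 (252 ± 8.56 TPM) and Ipo5 (249 ± 10.3) stood highest and did not differ beyond their spread. Kpna2 followed at 128 ± 14.7 TPM and Xpo1 at 97.3 ± 6.67. In SMNV, Kpna2 was highest at 213 ± 10.0 TPM, followed by Kpnb1 at 192 ± 8.72, Ipo5 at 147 ± 7.24 and Xpo1 at 72.0 ± 5.78. The TPM of Kpna2 over that of Kpnb1 was 0.507 ± 0.0418 in Dox and 1.11 ± 0.0540 in SMNV. The ratio of Ipo5 to Kpnb1 was 0.989 ± 0.00986 and 0.766 ± 0.00962.

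Exportins carry proteins and RNA out of the nucleus. Of 7 tested genes 4 fell (57.1%), none rose and Cse1l, Xpot and Xpo6 did not pass. The shares of all tested genes were 29.9% lower and 30.5% higher. Xpo1 (CRM1), the exportin of proteins with a leucine-rich export signal, had 263, 229 and 245 CPM in Dox and 207, 195 and 189 in SMNV. It was 1.25-fold lower, without overlap (log2 fold change -0.32 ± 0.07, adjusted p = 0.00078, edgeR). Xpo7 went from 159, 129 and 136 to 102, 108 and 99.6 CPM, a log2 fold change of -0.46 ± 0.08. Its Dox libraries differed among themselves, Dox 1 being the highest. Xpo4, which exports the translation factor eIF5A, had 47.4, 40.3 and 43.8 CPM in Dox and 34.8, 31.1 and 29.1 in SMNV, a log2 fold change of -0.47 ± 0.09. Xpo5, the exportin of microRNA precursors, fell by 0.27 ± 0.07 on the log2 scale. All 4 calls were kept in every alternative fit.

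Cse1l, which returns importin alpha to the cytosol, had a log2 fold change of -0.11 ± 0.06 on counts (adjusted p = 0.147, edgeR) and was lower on TPM (-0.22, adjusted p = 0.0146, limma). Its TPM over that of Kpna2 was 0.483 ± 0.0423 in Dox and 0.246 ± 0.00733 in SMNV. Xpot, the tRNA exportin, had -0.09 ± 0.06 on counts and was also called lower on TPM (-0.21, adjusted p = 0.0364). Xpo6, the exportin of actin bound to profilin, had -0.07 ± 0.06, and its groups overlapped.

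The Y complex forms the outer rings of the pore. Of 6 tested members Nup133, Nup85 and Nup37 rose (50%), Nup160 fell (16.7%) and Nup107 and Nup43 did not pass. Among all tested genes 30.5% rose and 29.9% fell. Nup133 had 26.5, 27.0 and 27.9 CPM in Dox and 43.4, 40.6 and 42.6 in SMNV, 1.55-fold higher with tight groups (log2 fold change 0.64 ± 0.08, adjusted p = 7.6e-06, edgeR). Nup160, another scaffold protein of this complex, had 54.6, 49.6 and 48.6 CPM in Dox and 39.4, 38.7 and 40.1 in SMNV. It fell by 0.37 ± 0.08 on the log2 scale (adjusted p = 0.00075), again without overlap. Nup107 had a log2 fold change of -0.12 ± 0.07 and was called lower on TPM (-0.23, adjusted p = 0.0236, limma), and Nup43 had 0.13 ± 0.12. The TPM of Nup133 over that of Nup160 was 0.784 ± 0.0718 in Dox and 1.57 ± 0.0518 in SMNV.

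Nup85 was less certain. Its CPM were 24.95, 31.0 and 27.3 in Dox and 33.3, 34.1 and 33.0 in SMNV, a log2 fold change of 0.27 ± 0.09 (adjusted p = 0.0191, edgeR). The call was lost on TPM (0.15), without Dox 1 (0.20) and without Dox 3 (0.26). Nup37, at 0.28 ± 0.11, lost its call on TPM (0.11), with the replicate number as a block (0.27, adjusted p = 0.0542) and without Dox 2 (0.22), Dox 3 (0.30) or SMNV 2 (0.18).

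The inner ring anchors the channel to the scaffold. Nup155 had 45.2, 38.0 and 39.6 CPM in Dox and 32.5, 34.2 and 34.6 in SMNV and fell by 0.28 ± 0.09 on the log2 scale (adjusted p = 0.0118, edgeR), a call kept in all 15 alternatives. Nup205, with 87.8, 79.0 and 85.2 CPM in Dox and 78.8, 70.9 and 73.9 in SMNV, fell by 0.17 ± 0.07 (adjusted p = 0.0396). The gap between its groups was narrow, and its call was lost without a filter, with DESeq2 and without Dox 1 (-0.14), Dox 3 (-0.17), SMNV 2 (-0.12) or SMNV 3 (-0.16). Nup93 and Nup35 did not pass, at 0.09 ± 0.07 and 0.17 ± 0.10.

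Nup188, a large inner ring protein related to Nup205, pointed in opposite directions in the authors' 2 tables. On counts it rose from 74.3, 84.3 and 79.4 to 98.9, 100.3 and 94.1 CPM (0.30 ± 0.07, adjusted p = 0.00121, edgeR), but on TPM it fell (-0.87, adjusted p = 0.00064, limma), from 68.7, 60.9 and 52.1 to 40.9, 29.8 and 27.8. The groups did not overlap on either scale. Counts divided by TPM give the length behind a TPM value, and relative to the length listed in the tables this was 0.386, 0.495 and 0.544 in Dox and 0.825, 1.09 and 1.09 in SMNV. A value of 1 would be the ratio of the median gene in that library. The TPM values of Nup188 thus rest on a length 2.11 times as long in SMNV as in Dox. The sources used here do not say how the authors set that length. Only Nup188 and Tnpo3 (0.771 times) differed by over 1.2-fold between the group means among 41 tested members, and 1.53% of 10901 genes did. For Tnpo3 the libraries overlapped, at 1.07, 0.930 and 1.07 in Dox and 0.560, 1.06 and 0.754 in SMNV.

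**Figure D4:**
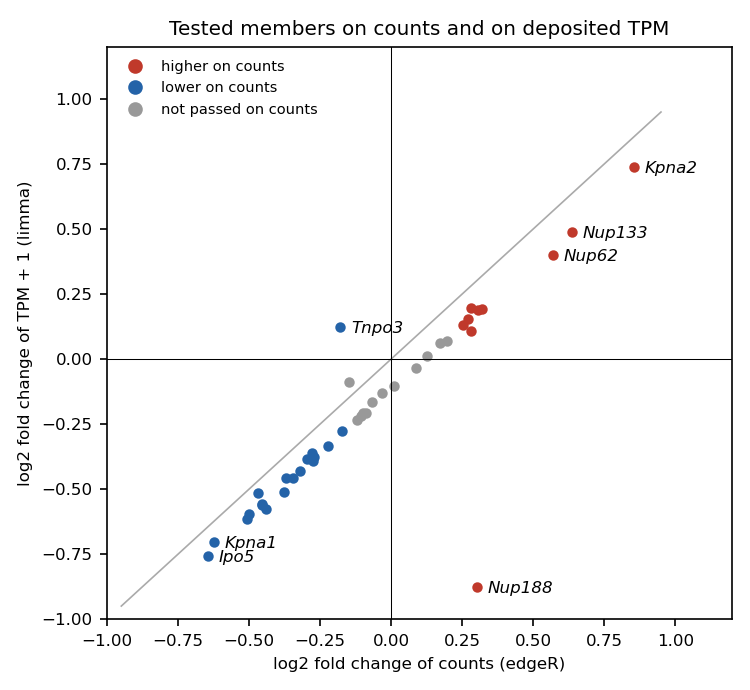
Log2 fold change of each of the 41 tested members on counts (x axis, edgeR) and on the authors' TPM values plus 1 (y axis, limma), with a grey line where both are equal. Most points lie just below the line, Tnpo3 lies above it and Nup188 far below it, at 0.30 on counts and -0.87 on TPM.

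The central channel is lined by Nup62, Nup58 and Nup54, which form a trimer, and its members diverged. Nup62 had 95.1, 107 and 90.9 CPM in Dox and 137, 152 and 145 in SMNV, 1.48-fold higher (log2 fold change 0.57 ± 0.07, adjusted p = 8.4e-06, edgeR). Nup58 had 68.6, 63.4 and 61.8 CPM in Dox and 54.5, 51.4 and 43.1 in SMNV, a log2 fold change of -0.38 ± 0.09 (adjusted p = 0.00161), with SMNV 3 the lowest library. Both calls were kept in every alternative fit. The counts of Nup62 carry decimals in every library, as those of Kpna2 do, so its reads may have been divided with another row. No alternative fit covers this. Nup54 had 24.5, 25.9 and 28.1 CPM in Dox and 23.3, 26.4 and 23.5 in SMNV, and its groups overlapped (-0.10 ± 0.09). The TPM of Nup62 over that of Nup58 was 1.01 ± 0.147 in Dox and 1.93 ± 0.321 in SMNV. Relative to the listed length, the length behind the TPM of Nup62 was 1.82 in Dox and 1.88 in SMNV. For Nup58 it was 0.974 and 0.993, so the level of this ratio in either group depends on the lengths used.

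Among the 3 genes grouped here under the cytoplasmic face, Nup88 rose, Nup98 fell and Nup214 did not pass. The grouping does not mean that each acts only there. Nup88 and Nup214 form a complex to which export receptors dock. Nup88 had 60.6, 55.1 and 60.1 CPM in Dox and 66.1, 74.4 and 68.9 in SMNV (0.25 ± 0.07, adjusted p = 0.00711, edgeR), and its call was lost on TPM (0.13). Nup214 had 48.9, 50.01 and 52.4 CPM in Dox and 62.6, 50.6 and 60.1 in SMNV, with SMNV 2 among the Dox values. Its log2 fold change was 0.20 ± 0.08 (adjusted p = 0.0561), and without SMNV 2 it was 0.30 and passed (adjusted p = 0.00616). It also passed with upper-quartile scaling and without a filter. Nup98, whose gene also encodes the Y complex protein Nup96, had 176, 159 and 170.1 CPM in Dox and 156, 142 and 135 in SMNV and fell by 0.22 ± 0.07 (adjusted p = 0.0108). That call was lost without SMNV 2 (-0.20) or SMNV 3 (-0.17).

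In the nuclear basket Nup153, which anchors the basket and binds import receptors, had 146, 124 and 133 CPM in Dox and 101, 94.3 and 90.1 in SMNV. It was 1.41-fold lower (log2 fold change -0.50 ± 0.07, adjusted p = 3.1e-05, edgeR), a call kept in every alternative fit. It was the largest fall on counts among the 19 tested nucleoporins of the naming pattern. Nup50, its mobile partner, had 59.7, 55.3 and 57.9 CPM in Dox and 58.0, 53.9 and 57.2 in SMNV, with overlapping groups (-0.03 ± 0.07).

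Pore components outside the naming pattern were also split. Of 10 listed genes, 9 had a row, 3 rose (33.3%), 4 fell (44.4%) and 2 did not pass. Over all tested genes 30.5% rose and 29.9% fell. Ranbp2, the main protein of the cytoplasmic filaments, had 348, 314 and 338 CPM in Dox and 236, 206 and 196 in SMNV, a log2 fold change of -0.65 ± 0.07 (adjusted p = 3.5e-06, edgeR). Tpr, the basket filament protein, and Ahctf1 (ELYS), which starts pore assembly on chromatin, fell by 0.42 ± 0.07 and 0.42 ± 0.07. The transmembrane protein gene Pom121 rose from 14.8, 20.9 and 20.9 to 38.1, 32.6 and 39.7 CPM (0.96 ± 0.12), Aaas (aladin) by 0.91 ± 0.12 and Gle1, an mRNA export factor of the cytoplasmic face, by 0.37 ± 0.08. Sec13 fell by 0.18 ± 0.06, a call lost without Dox 2, SMNV 1 or SMNV 3. The other 6 calls were kept in all alternative fits. In most libraries the counts of Pom121 carried decimals, and no alternative fit covers a division of its reads.

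The Ran cycle sets the direction of transport, and 5 of its 7 tested genes (71.4%) rose, against 30.5% of all tested genes. None fell on counts, and the list as a whole was not tested. The list had 8 genes, 7 of them with a row, and a median of 0.59. The tested genes that did not pass were Rangrf, at 0.33 ± 0.22 and under 5 CPM on average in both groups, and Nutf2, the import factor of Ran, at -0.09 ± 0.07 on counts. On TPM the same number rose and Nutf2 fell (-0.28). Rangap1, the activator of GTP hydrolysis by Ran, had 56.7, 67.8 and 64.6 CPM in Dox and 137, 134 and 138 in SMNV, 2.17-fold higher (log2 fold change 1.12 ± 0.07, adjusted p = 1.2e-08, edgeR). Rcc1, the exchange factor that loads Ran with GTP on chromatin, went from 11.7, 15.4 and 17.6 to 29.4, 29.7 and 30.7 CPM (1.005 ± 0.12). Ran itself went from 152, 179 and 169 to 220.0, 248 and 237 CPM (0.50 ± 0.07). Ranbp3, a cofactor of Xpo1, rose by 1.10 ± 0.09 and Ranbp1, which releases Ran from receptors, by 0.59 ± 0.07. The 5 calls were kept in every alternative fit. They stood in the same libraries as the higher proliferation markers, whose part in them was not tested.

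Of 17 mRNA export genes 8 rose, 3 fell and 6 did not pass on counts. That is 47.1% higher and 17.6% lower, against 30.5% and 29.9% of all tested genes. In either direction 64.7% changed, near the 60.4% of all genes, and on TPM 6 rose and 7 fell. The calls of Pcid2 (0.24 ± 0.09) and Thoc5 (0.30 ± 0.09) were lost in 7 and 4 alternative fits, TPM among them and, for Pcid2, the replicate block. The helicase gene Ddx39b rose by 0.54 ± 0.07 and the adaptor Alyref by 0.36 ± 0.07, while Thoc2 of the THO complex fell by 0.52 ± 0.09. The export receptor Nxf1 had 0.03 ± 0.06, and its cofactor Nxt1 rose by 0.69 ± 0.16 from a mean of 5.72 CPM. Among 12 other adaptors and cofactors none rose on counts or TPM and 6 (50%) fell on counts, against 29.9% of all genes. Of these calls, that of Snupn, the adaptor for spliceosomal RNPs, was lost in 8 alternative fits, and that of Senp2, a SUMO protease, without SMNV 2, where 4 of the 12 fell. Ranbp6, a relative of Ipo5, fell by 0.51 ± 0.09, the ribosomal subunit export adaptor Nmd3 by 0.36 ± 0.08 and the cap-binding protein gene Ncbp1 by 0.34 ± 0.07.

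**Figure D5:**
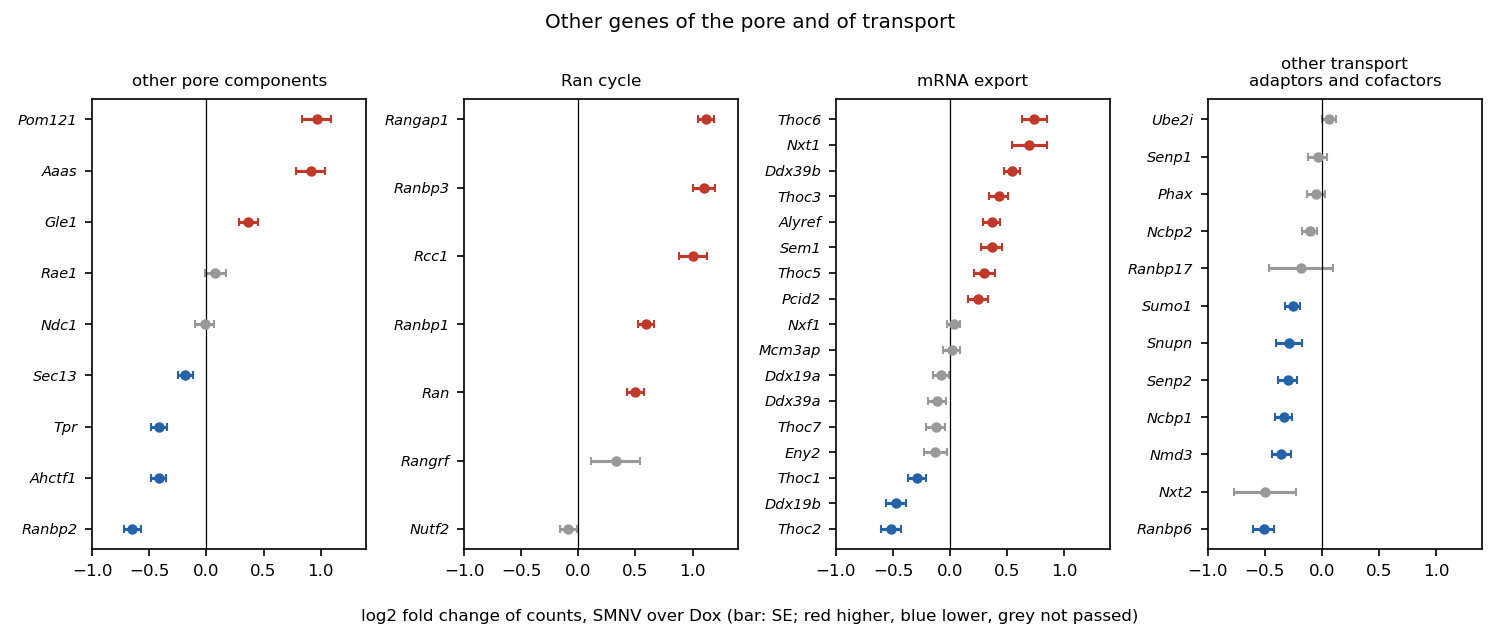
Log2 fold change of counts, SMNV over Dox, with standard error bars, for tested genes of 4 lists outside the naming pattern. Red points rose, blue points fell and grey points did not pass. The 5 red points of the Ran cycle lie between 0.50 and 1.12, and the adaptor list has no red point.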

How the data were processed

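Poly(A) RNA-seq of 6 libraries was analysed, 3 per group, grouped by title. The authors deposited estimated counts per gene, not normalized, with 17.9% to 18.8% of values above 0 carrying decimals, and TPM values, scaled by length by the authors. Per the submitters' processing notes, the tools were fastp, HISAT2 and HTSeq and the build mRatBN7.2, with no roles or versions. The sources used here give neither strand setting nor annotation release, so reads of overlapping genes cannot be told apart.

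Counts were rounded and compared with edgeR 4.0.16 in R 4.3.3 (filterByExpr, TMM scaling, glmQLFit and glmQLFTest, group as the only term, 2-sided). Benjamini-Hochberg adjustment ran over the 12614 genes tested, and the threshold was 0.05; only genes past it are said to have risen or fallen. Positive log2 fold changes are higher in SMNV, and the SE is the absolute log2 fold change over the square root of F. Alternatives were RLE and upper-quartile scaling, no filter, a filter of 1 CPM in 3 libraries, DESeq2 1.42.0, voom, limma-trend on log2(TPM + 1) and log2(TPM + 0.1) with limma 3.58.1, the replicate number as a block, and leaving out each library. The edgeR step was tested on simulated data: of 200 changed genes among 12614, it called 92 of 100 at 2-fold and 70 of 100 at 1.5-fold. A far smaller share was changed there than the 60.4% called in the data, so these rates do not describe the fit to the data. Within groups, libraries differed by a chi-square per degree of freedom of at least 3.49, more than random sampling of the same counts would give. This cannot show whether any were made from the same RNA or culture.

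Members and lists were chosen with earlier results of these data known. Values in every library are given for up to 3 members per role with the smallest p, for the 5 largest rises and falls and, chosen after its values were seen, for Tnpo3. RefSeq symbols and promoters are of the assembly GRCr8.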

Additional observations from a re-analysis of the deposited data

How the results depend on the processing

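Of 29 called members, 19 kept their direction and call in all 15 alternatives, 4 of them higher and 15 lower. The count of higher members was 10 and fell to 4 on both TPM scales, and ranged from 8 to 10 without a library. The count of lower members was 19, was 22 on both TPM scales and ranged from 15 to 19 without a library. With the replicate block, 9 members were higher and 19 lower, and 3786 and 3601 of all genes. Same-numbered Dox and SMNV libraries had correlations of deviations from the group mean of 0.0076, -0.12 and 0.0016. No Dox library correlated best with the SMNV library of its own number. Of the SMNV libraries only SMNV 1 did so, at 0.00764 with Dox 1 against 0.00762 with Dox 3. With 3 libraries per group, this cannot show whether same-numbered libraries shared a culture or day. Only the call of Nup37 changed with the block. On log2(TPM + 1) and log2(TPM + 0.1) the sign reversed for Nup188 (-0.87 and -0.89), Tnpo3 (0.12 and 0.12), Ipo9 (-0.11 and -0.11) and Nup93 (-0.033 and -0.034), and only Nup188 passed there. For Nup188 the length behind the TPM differed between groups, and for Tnpo3 it differed among the SMNV libraries. For Ipo9 and Nup93 the cause was not tested. Without a library, Ipo9 ranged from -0.023 to 0.059 and Nup50 from -0.064 to 0.014, neither passing. TPM values were not rescaled, and the median of all genes was -0.10 on log2(TPM + 1), against -0.01 on counts. Depth limits the 4 genes under the filter, all under 1 CPM.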

Other observations

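A further pair of expressed rows of the same families lay outside the naming pattern and in none of the lists, and were named after their values were seen. A row that the files describe as similar to importin 11, and RefSeq names Ipo11-ps1, had 35.8, 31.2 and 29.6 CPM in Dox and 26.4, 25.1 and 24.5 in SMNV, without overlap, and a log2 fold change of -0.35 ± 0.09 (adjusted p = 0.00471, edgeR). The row of Nupl2, described in the files as nucleoporin like 2, had 8.97, 9.04 and 10.5 CPM in Dox and 7.88, 7.92 and 10.6 in SMNV, and its groups overlapped (-0.11 ± 0.15).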
